A study of Mus musculus with 4 samples.

Results

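The comparison described here is D-PPMP against Control, across all genes that could be measured in both. Cells were MC3T3-E1, an osteoblastic line established from mouse calvaria, and each group was 1 Agilent one-colour array of 1 RNA sample. D-PPMP is a ceramide-like compound with a morpholino ring and a palmitoyl chain that inhibits glucosylceramide synthase. It was given at 1.0 µM for 4 days, after which the cells were replated and harvested 24 h later, and Control cells are labelled only as such. The same series holds D-PDMP at 10 µM and Miglustat at 50 µM, which inhibit the same enzyme. Their doses differ from that of D-PPMP, so their values are placed beside those of D-PPMP with no comparison drawn. A gene was included when its brightest probe was well above background on both arrays by the scanner software's own call. That held for 14197 of the 22907 genes matched to a probe.

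Glucosylceramide synthase joins glucose to ceramide, the entry step to most glycosphingolipids of the cell surface. These lipids gather in membrane microdomains with growth factor receptors, and their shortage or a surplus of ceramide is known to alter signalling from such receptors. Osteoblasts are secretory cells, devoted to making, folding, modifying and exporting collagen and other matrix proteins, and they respond to insulin-like growth factors that they make themselves.

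Levels are given as scaled signals, in which the array's 75th percentile over all non-control probes is 100, and differences as log2 ratios of D-PPMP over Control, in which 1 is a doubling and -1 a halving. With 1 array a group there was no replicate, no test and no p-value, and nothing here measures the spread between cultures. Within an array, bright probes with repeated spots had an SD of 0.0364 in Control and 0.0281 with D-PPMP on the log2 scale, and the error of a ratio that the software reports had a median of 0.204. Both arrays lay on 1 slide, and the place on it cannot be told apart from the group. The share of probes well above background was 57.4% in Control and 62.4% with D-PPMP. The mRNA of the inhibited enzyme, Ugcg, had scaled signals of 272.9 and 273.0 in the same order.

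Most genes lay close to Control. The median log2 ratio was -0.005, 6888 genes were above Control and 7309 below (48.5% above), the middle 95% ran from -0.445 to 0.565, and 96.6% of genes were within 1.5-fold. At least 2-fold higher with D-PPMP were 43 genes (0.303%), and at least 2-fold lower were 29 (0.204%). At 1.5-fold the counts were 322 (2.27%) and 167 (1.18%). The split between the directions moved with the scaling of the arrays, from 322 higher and 167 lower to 145 higher and 361 lower with quantile normalization and 138 and 348 with cyclic loess. The ratios also moved with level. In the dimmest 10% of genes, around a scaled signal of 4.9, the median ratio was 0.143 and 23 genes were 2-fold higher and 12 lower. In the brightest 10%, around 5102.1, the median was -0.039 and no gene was 2-fold apart. Only 5 genes above the median level of 232.8 were 2-fold apart, namely Egr2, Errfi1, Nr4a1, Dcn and Cdsn.

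**Figure D1:**
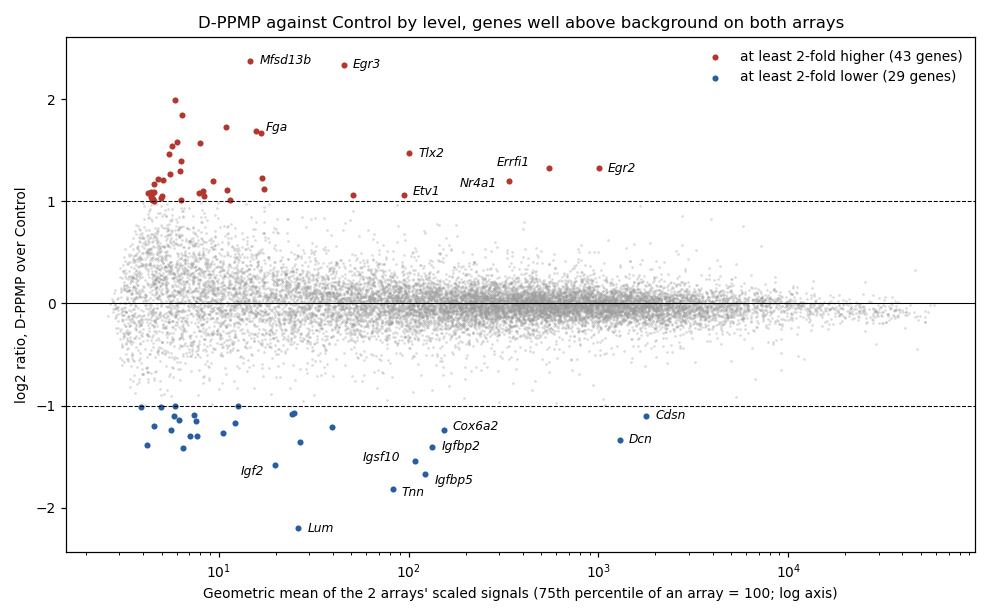
Each point is 1 of the 14197 genes measured in both groups, placed by the geometric mean of its 2 scaled signals (log axis) and its log2 ratio of D-PPMP over Control, with dashed lines at 2-fold. The 43 genes at least 2-fold higher (red) and the 29 lower (blue) lie mostly at low levels, where the grey cloud is widest.

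Among genes 2-fold higher were regulators of growth factor signalling and transcription. Egr2, a zinc finger transcription factor induced early after stimulation, had a scaled signal of 634.0 in Control and 1587.8 with D-PPMP, a log2 ratio of 1.32. Errfi1, which binds and restrains the EGF receptor, went from 345.2 to 864.3, also 1.32. Nr4a1, an orphan nuclear receptor, went from 221.9 to 511.0, or 2.30-fold. All 3 stayed past 2-fold under every scaling tried. Etv1, an ETS factor, was at 65.4 and 136.7 (1.06), and Arhgap36, an antagonist of protein kinase A, at 35.3 and 73.3 (1.06), which normexp background correction lowered to 0.78 and 0.61. Tlx2, a homeobox factor of enteric neurons, was at 60.3 and 167.2 (1.47), but its other probe gave 0.16. Egr3 was higher on both of its measured probes, at 2.34 and 2.67.

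The remaining genes that were 2-fold higher were dim, with scaled signals below 12 in Control. Mfsd13b, a membrane protein of the major facilitator superfamily, went from 6.43 to 33.4, a ratio of 2.38. Glyat, a glycine N-acyltransferase of mitochondria, went from 2.93 to 11.7 (3.99-fold), and Fga, the fibrinogen alpha chain, from 8.8 to 28.4 (1.69). Prl2c5, of the placental prolactin family, went from 9.38 to 29.9 (1.67), and its near-identical relatives may share the probe. Rgs16, which ends signalling by G protein alpha subunits, went from 4.63 to 13.8 (1.57). Others in this range were Has1, a hyaluronan synthase, at 1.05, Itgb2, the common beta chain of leukocyte integrins, at 1.08, Chrne, a subunit of the acetylcholine receptor of muscle, at 1.13, Slc6a17, a neutral amino acid transporter of synaptic vesicles, at 1.07, and Gpnmb, a transmembrane glycoprotein of osteoblasts and macrophages, at 1.01. With normexp these dim ratios shrank, to 0.34 for Mfsd13b and Fga, 0.35 for Glyat, 0.59 for Prl2c5 and 0.27 for Rgs16.

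**Figure D2:**
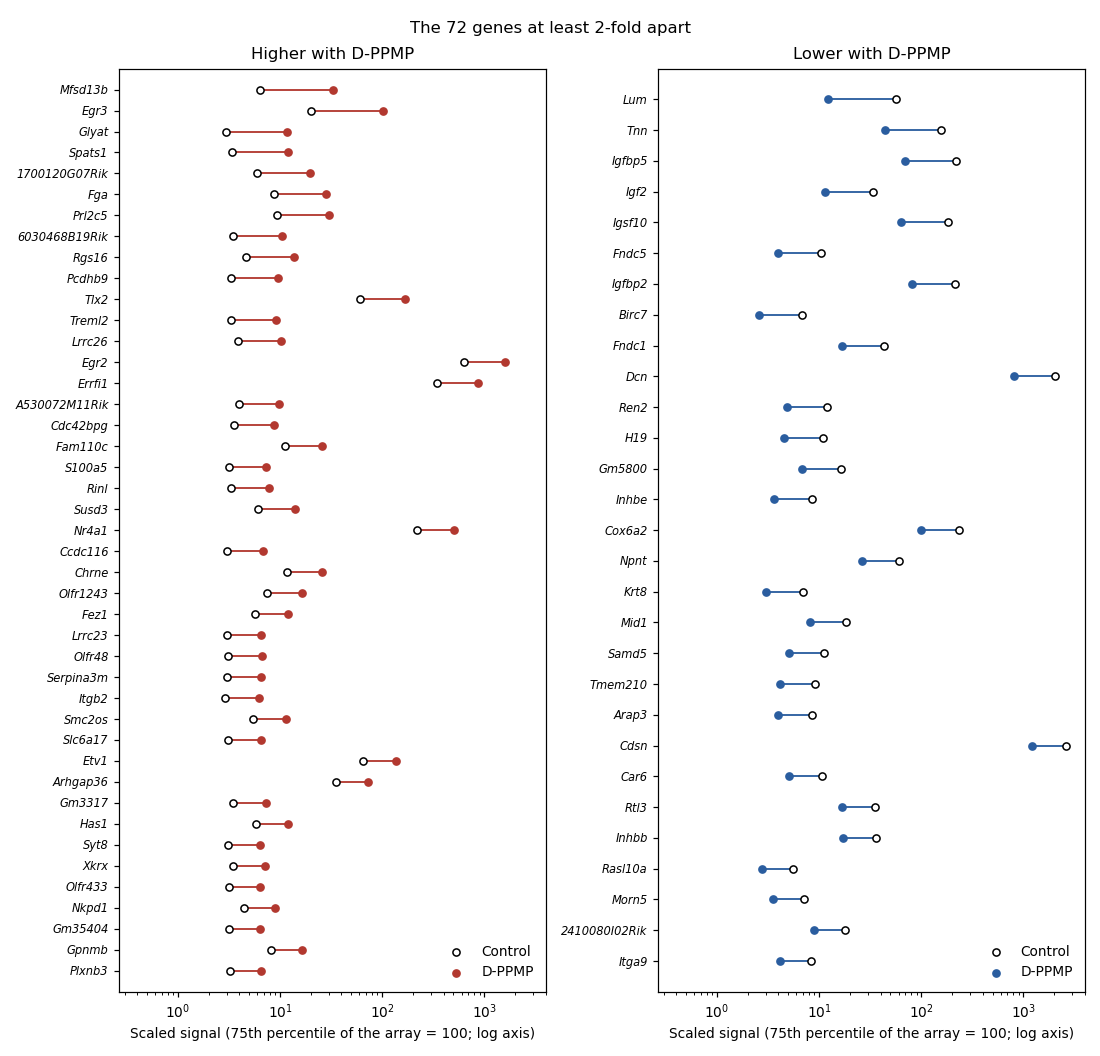
Scaled signals on a log axis of the 72 genes at least 2-fold apart, in Control (open circles) and with D-PPMP (filled), 1 array each, ordered by ratio. The bright exceptions among mostly dim genes are Egr2, Errfi1 and Nr4a1 on the left and Dcn and Cdsn on the right.

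The promoters of the brightest genes that were higher are shown because each holds a motif known from stimulus-induced genes, though neither motif was limited to higher genes. The sequences are from RefSeq, GRCm38.p6, and cover the 250 bases before the annotated start of a transcript, 5′ to 3′ on the gene's strand. Capitals mark a CArG box, the site of serum response factor, in Egr2 at chr10:67537316-67537565 (+ strand), and a cyclic AMP response element, TGACGTCA, in Errfi1 at chr4:150854820-150855069 (+ strand).
Egr2: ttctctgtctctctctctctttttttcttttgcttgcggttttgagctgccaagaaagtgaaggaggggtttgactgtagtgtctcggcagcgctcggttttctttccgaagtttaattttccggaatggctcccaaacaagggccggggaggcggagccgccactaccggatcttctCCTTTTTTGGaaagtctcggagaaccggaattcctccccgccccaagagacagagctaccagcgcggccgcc
Errfi1: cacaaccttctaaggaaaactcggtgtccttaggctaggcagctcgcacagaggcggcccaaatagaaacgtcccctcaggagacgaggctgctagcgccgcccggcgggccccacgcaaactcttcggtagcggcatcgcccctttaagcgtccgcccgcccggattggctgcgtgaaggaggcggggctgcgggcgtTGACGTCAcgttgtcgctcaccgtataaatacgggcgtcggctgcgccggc

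Motifs were sought on both strands in windows from 250 bases before to 50 after a start, which matched 11260 of the measured genes. A CArG box was found in 1.72% of these genes, in 1 of 34 that were 2-fold higher (2.94%) and in 2 of 22 that were 2-fold lower (9.09%, Gm5800 and Igf2). TGACGTCA was found in 3.37% of all. TGANTCA is a loose form of the AP-1 site in which any base was allowed in the middle, so not every match is such a site. It was found in 6.6% of all and in 6 of 34 genes that were 2-fold higher (17.65%). These were Fam110c, Glyat, Gpnmb, Slc6a17, Syt8 and Xkrx, all dim genes. With normexp their ratios fell to between 0.09 (Syt8) and 0.41 (Fam110c), so none stayed 2-fold higher. The letters TGANTCA were in 2 of 22 that were 2-fold lower (9.09%), in 10.59% of those 1.5-fold higher and in 7.87% of those 1.5-fold lower. TGACGTCA was in 3 of the 34, Errfi1, Has1 and Nkpd1. The EGR site GCGGGGGCG, bound by the Egr proteins, was in 5.85% of all and in 1 of the 34, Nr4a1. A match is a description of the sequence and not of binding.

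The 29 genes that were 2-fold lower had varied functions. Matrix proteins among them were Lum, at 56.2 and 12.2 (-2.20), Dcn, at 2054.9 and 815.3 (-1.33), and Tnn, tenascin-N, at 154.7 and 43.8 (-1.82, other probe -1.65). Igsf10, a secreted protein with immunoglobulin domains, was at 183.7 and 63.2 (-1.54), though its other probe gave -0.13. Fndc1 and Fndc5, both with fibronectin type III domains, were at -1.36 and -1.41, though another Fndc1 probe gave -0.48. Itga9, an integrin alpha chain, went from 8.33 to 4.16. Cdsn, corneodesmosin, went from 2605.5 to 1217.3 (-1.10). Cox6a2, the muscle form of a cytochrome c oxidase subunit, went from 235.0 to 99.6 (-1.24). Activin and inhibin beta subunits were lower in Inhbb, at 36 and 17.2 (-1.07), and Inhbe, at 8.59 and 3.63 (-1.24), while Inhba, the bright subunit, was at 2796.5 and 3084.6 (0.14). Ren2, a renin whose probe may also read the near-identical Ren1, was at -1.30 and Krt8, a simple epithelial keratin, at -1.20. Mid1, a microtubule-bound ubiquitin ligase, was at -1.17 with another of its probes at 0.00. Many of these genes were dim, such as Ren2 at 12 and 4.88 and Krt8 at 6.9 and 3.01. With normexp such ratios shrank, to -0.28 for Ren2, -0.37 for Mid1, -0.22 for Itga9 and -0.26 for Krt8, Fndc5 and Inhbe. Lum, Dcn, Tnn, Igsf10, Cdsn and Cox6a2 stayed 2-fold lower under every scaling tried.

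Insulin-like growth factor genes were examined as a set chosen after their values were seen. Igf2, the fetal growth factor, went from 34 to 11.4 (-1.58). Igfbp5, the binding protein abundant in bone, went from 218.8 to 68.7 (-1.67), and Igfbp2 from 216.5 to 82.1 (-1.40). Pappa2, a protease that cleaves Igfbp5, was far brighter and went from 8637.5 to 5172.2 (-0.74, with -0.76 on its other probe). Its relative Pappa, which cleaves Igfbp4, was at 449.1 and 307.2 (-0.55), and Igf1 at 2703.2 and 1945.5 (-0.47). Irs1, the adaptor of the insulin and Igf1 receptors, was at -0.38 and Grb10, which inhibits these receptors, at -0.44. Other members differed little, with Igf1r at -0.04, Igf2r at -0.04, Igfbp3 at 0.07, Igfbp6 at -0.10 and Igfbp7 at 0.05. On the other arrays Igf2 was at -0.31 with Miglustat and -2.69 with D-PDMP, Igfbp5 at -0.90 and -0.85, Igfbp2 at 0.37 and -1.11, and Pappa2 at 0.44 and -0.69, at other doses than D-PPMP.

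Some of these genes are neighbours in the genome. There were 14170 pairs of measured genes next to each other in the RefSeq order. Both members were at least 1.5-fold apart in the same direction in 18 of these, 13 higher and 5 lower. Of single measured genes 2.27% were 1.5-fold higher and 1.18% lower. How many pairs these shares alone would give was not tested. In 3 pairs both members were 2-fold lower, namely Igfbp2 with Igfbp5, Dcn with Lum, and H19 with Igf2. The higher pairs include Fgf2 (0.80) with its antisense transcript Fgf2os (0.90), which the array may not separate fully, Foxc2 (0.60) with Foxl1 (0.75), and Phf19 (0.83) with Traf1 (0.66).

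Genes listed as imprinted, of which only the maternal or the paternal copy is active in at least some tissues, included several of the lowest ratios. Which copy was active in these cells was not measured. Of 48 with a probe, 33 were measured on both arrays, 12 above Control and 21 below, with a median of -0.123 against -0.005 for all measured genes. At least 1.5-fold lower were 5 and 2-fold lower 3 (against 1.18% and 0.204% of all measured genes), and none was 1.5-fold higher (against 2.27%). Igf2 and Dcn are given above. H19, the noncoding RNA beside Igf2, was dim, at 11 and 4.51 (-1.29). Background correction by normexp reduced Igf2 to -0.65 and H19 to -0.30. Mest, a paternally expressed hydrolase-like protein of mesoderm, went from 215.2 to 122.8 (-0.81, with -0.62 on the other probe). Plagl1, a zinc finger regulator of other imprinted genes, went from 467.7 to 272.2 (-0.78), but another probe gave 0.40. On the higher side, Kcnq1ot1, a noncoding RNA that silences its neighbours, was at 418.5 and 596.6 (0.51), with its other probes between 0.39 and 0.66. Airn, the antisense RNA of Igf2r, was at 87.7 and 121 (0.47), with -0.42 on its other probe, and dim Rian was at 3.49 and 4.97 (0.51). Cd81 (-0.05), Igf2r (-0.04) and Ndn (0.09) lay close to Control.

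**Figure D3:**
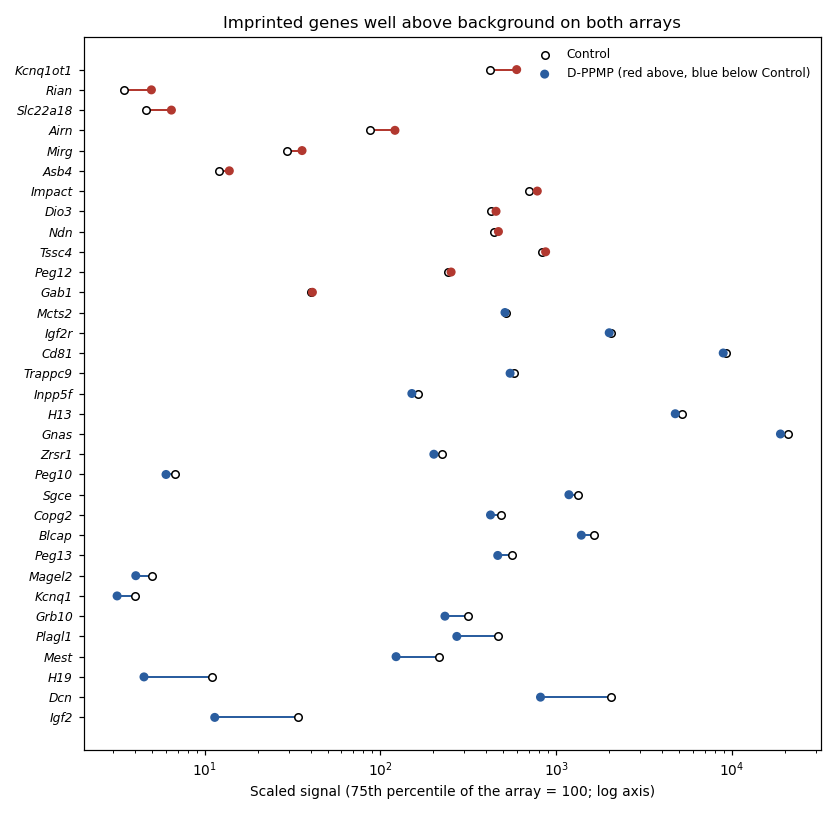
Scaled signals on a log axis of the 33 imprinted genes measured in both groups, in Control (open circles) and with D-PPMP (filled, red above and blue below Control), ordered by ratio. Igf2, Dcn, H19 and Mest show the longest lines to the left, while Kcnq1ot1 leads the 12 genes above Control.

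Most genes of the early secretory pathway were below Control by small amounts. Of 53 measured genes of protein entry into the endoplasmic reticulum and of transport to the Golgi, 45 were below Control, with a median of -0.115, and none was 1.5-fold apart. Creb3l1, the membrane-bound factor that drives secretory genes in osteoblasts, went from 2546.1 to 2021.8 (-0.33), and its relative Creb3l2 from 145.1 to 115.2 (-0.33). Lman1, the cargo receptor of glycoproteins, was at 3204.3 and 2638.3 (-0.28), and Ssr4, a subunit of the translocon-associated complex, at 7142 and 5968.2 (-0.26). The highest member was Sec24a, a cargo-binding subunit of the COPII coat, at 172 and 185.9 (0.11). Of 42 genes of N-glycosylation in the endoplasmic reticulum, 34 were below Control, with a median of -0.102. Gmppa, which regulates the supply of GDP-mannose, was at 689.1 and 521.8 (-0.40), Ostc, of the oligosaccharyltransferase, at 1659.9 and 1383.2 (-0.26), and Alg2, a mannosyltransferase, at 1331.8 and 1116.1 (-0.26). Alg6, a glucosyltransferase, was highest at 188.7 and 230.8 (0.29). No member of either list was past 1.5-fold, and the 2 medians ranged from -0.123 to -0.102 and from -0.10 to -0.079 under the other scalings.

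The letters TGACGTGG, resembling the element bound by Xbp1 and Atf6 in the unfolded protein response, were found in 0.96% of all promoters and in 6 of 44 of the endoplasmic reticulum to Golgi list (13.64%), but in 0 of 34 of the N-glycosylation list. The 6 were Copb1 (-0.14), Copb2 (-0.01), Kdelr3 (-0.21), Sec16b (-0.24), Sec23a (-0.11) and Sec24d (0.02). The promoters of Kdelr3, a receptor that retrieves resident proteins, at chr15:79516158-79516407 (+ strand), and of Copb1, a subunit of the COPI coat, at chr7:114254681-114254930 (- strand), are shown as examples from genes below Control. The motif, or its reverse complement, is in capitals and stands near the start in both, as it does in Sec24d, which is not shown.
Kdelr3: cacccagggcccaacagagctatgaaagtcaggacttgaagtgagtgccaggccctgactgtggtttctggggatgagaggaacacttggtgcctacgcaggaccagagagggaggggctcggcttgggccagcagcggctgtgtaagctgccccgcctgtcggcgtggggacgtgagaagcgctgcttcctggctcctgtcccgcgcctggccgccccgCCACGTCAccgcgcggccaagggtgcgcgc
Copb1: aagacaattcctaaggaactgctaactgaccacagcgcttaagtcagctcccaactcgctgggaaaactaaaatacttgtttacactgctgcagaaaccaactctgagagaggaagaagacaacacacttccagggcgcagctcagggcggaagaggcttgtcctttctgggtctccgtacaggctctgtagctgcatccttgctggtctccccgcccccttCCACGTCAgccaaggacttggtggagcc

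Aminoacyl-tRNA synthetases lay below Control, and the lists of amino acid metabolism and transport less so or not at all. Of 23 cytosolic aminoacyl-tRNA synthetases, which charge tRNAs, 18 were below, with a median of -0.179, the lowest median of the 62 process lists, and none was 1.5-fold apart. Aars, for alanine, went from 3096.1 to 2314.3 (-0.42) and Sars, for serine, from 4418.8 to 3431.5 (-0.36). Farsa, for phenylalanine, was the exception at 1380 and 1673.4 (0.28), with -0.02 on its other probe. In serine, glycine and one-carbon metabolism the median was -0.02, with 13 of 27 genes above Control and 14 below. At least 1.5-fold lower were 2 and 1.5-fold higher 1 (against 1.18% and 2.27% of all measured genes). The lower 2 were Cth, the cystathionine gamma-lyase, at 107 and 55.4 (-0.95), and Aldh1l2, a mitochondrial folate enzyme, at 1000.3 and 619.9 (-0.69, with -0.68 on the other probe). Psat1 and Psph, the later enzymes of serine synthesis, were at -0.35 and -0.36, while dim Cbs, the enzyme before Cth, was at 7.09 and 12.9 (0.87). In glutamine, proline, asparagine and arginine metabolism 17 of 27 were below (median -0.075), with Gpt2, the mitochondrial alanine transaminase, at 281.3 and 183.1 (-0.62), Asns, asparagine synthetase, at 9522.9 and 7225.4 (-0.40) and Aldh18a1, of proline synthesis, at -0.39. Odc1, which starts polyamine synthesis, was higher at 2139.7 and 3056.5 (0.51, with 0.17 on the other probe). Amino acid transporters were balanced, with 12 of 27 above and a median of -0.004. Their most distant member was the dim Slc6a17, 2-fold higher at 1.07, while Slc6a9, for glycine, went from 1230.7 to 707.1 (-0.80), Slc7a11, for cystine, from 38.6 to 19.9 (-0.96), and Slc3a2, the shared heavy chain, from 4996.5 to 4055 (-0.30).

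Several of these promoters hold the letters TGATGNAA, the amino acid response element read by Atf4. It was found in 2.89% of all promoters and in 5 of 16 synthetase promoters (31.25%), those of Aars, Gars (-0.24), Iars (-0.18), Tars (-0.22) and Yars (-0.26). Among genes at least 1.5-fold lower it was in 10 of 127 (7.87%) and among those 1.5-fold higher in 10 of 236 (4.24%). The promoters of Aars at chr8:111033592-111033841 (+ strand), Tars at chr15:11399659-11399908 (- strand), Asns at chr6:7693210-7693459 (- strand) and Slc7a11 at chr3:50443614-50443863 (- strand) are shown as examples from genes below Control. The element is in capitals in either orientation, and appears 2 times in Slc7a11.
Aars: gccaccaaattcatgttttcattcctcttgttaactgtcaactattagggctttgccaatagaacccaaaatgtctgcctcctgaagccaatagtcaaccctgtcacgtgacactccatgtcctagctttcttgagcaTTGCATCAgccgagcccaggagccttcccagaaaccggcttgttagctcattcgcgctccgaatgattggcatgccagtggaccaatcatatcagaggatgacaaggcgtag
Tars: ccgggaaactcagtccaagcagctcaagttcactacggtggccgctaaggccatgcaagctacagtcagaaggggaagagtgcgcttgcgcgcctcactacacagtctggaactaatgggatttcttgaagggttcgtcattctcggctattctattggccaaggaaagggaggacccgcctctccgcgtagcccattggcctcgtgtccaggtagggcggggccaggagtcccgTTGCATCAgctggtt
Asns: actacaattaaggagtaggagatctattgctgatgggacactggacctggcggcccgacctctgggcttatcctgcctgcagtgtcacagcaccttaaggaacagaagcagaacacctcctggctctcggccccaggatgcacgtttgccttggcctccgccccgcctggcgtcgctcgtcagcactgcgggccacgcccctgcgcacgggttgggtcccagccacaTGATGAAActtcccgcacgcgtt
Slc7a11: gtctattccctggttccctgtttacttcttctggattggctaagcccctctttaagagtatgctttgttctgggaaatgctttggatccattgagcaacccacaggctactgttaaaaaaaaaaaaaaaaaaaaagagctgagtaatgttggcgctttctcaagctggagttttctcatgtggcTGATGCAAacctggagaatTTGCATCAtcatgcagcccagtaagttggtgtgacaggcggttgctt

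**Figure D4:**
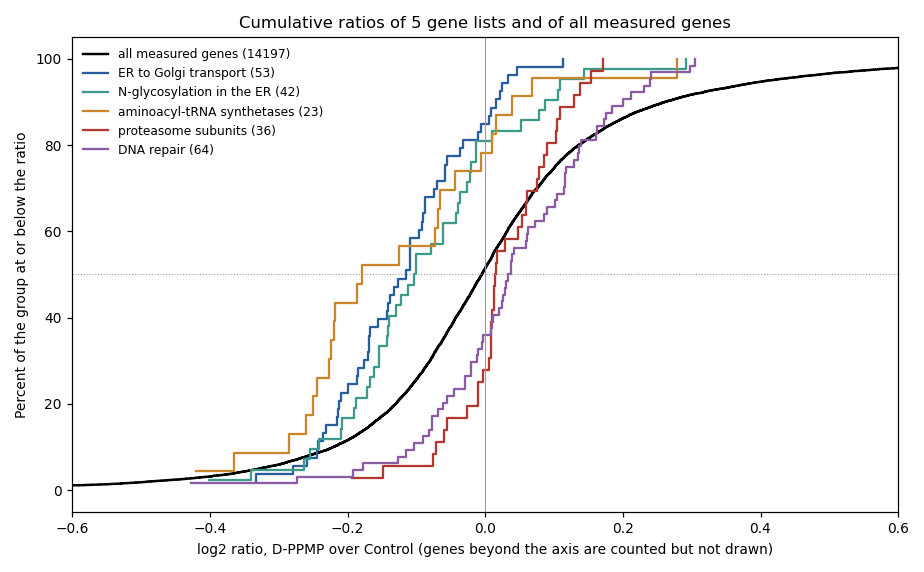
For 5 gene lists and all 14197 measured genes, the percent of the group (vertical axis) at or below each log2 ratio of D-PPMP over Control (horizontal axis). The curves of aminoacyl-tRNA synthetases, transport from the endoplasmic reticulum and N-glycosylation cross 50% at -0.179, -0.115 and -0.102, to the left of all genes, and those of the proteasome and DNA repair at 0.015 and 0.035.

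Other parts of the protein and RNA machinery had medians between -0.118 and 0.035. Of 81 cytosolic ribosomal protein genes, 73 were below Control with a median of -0.07, which went to 0.00 with quantile normalization, and Rpl12 was lowest at -0.24. Translation factors were below in 27 of 39 (median -0.039, and 0.00 with quantile normalization), with Eif3c at -0.24. Of 36 proteasome subunits 26 were above (median 0.015), of 64 DNA repair genes 41 (median 0.035), with Neil3, Bard1, Brca1 and Lig1 between 0.24 and 0.30, and of 40 nucleotide synthesis genes 26 (median 0.019), with Gmps at 0.34 and Dck at 0.33. Histone genes were below in 36 of 48, and their median of -0.118 was the furthest from 0 among these groups. Cytosolic heat shock proteins had a median of 0.017, but Hspb1, the small heat shock protein, went from 2806.5 to 1875.5 (-0.58). Chromatin modifiers were balanced at 30 above and 29 below, with Chd4, of the NuRD complex, at 3241.4 and 2401.8 (-0.43) and Dnmt1, the maintenance DNA methyltransferase, at 263 and 327.8 (0.32). Zinc finger genes named Zfp were below in 234 of 344 (median -0.073).

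**Figure D5:**
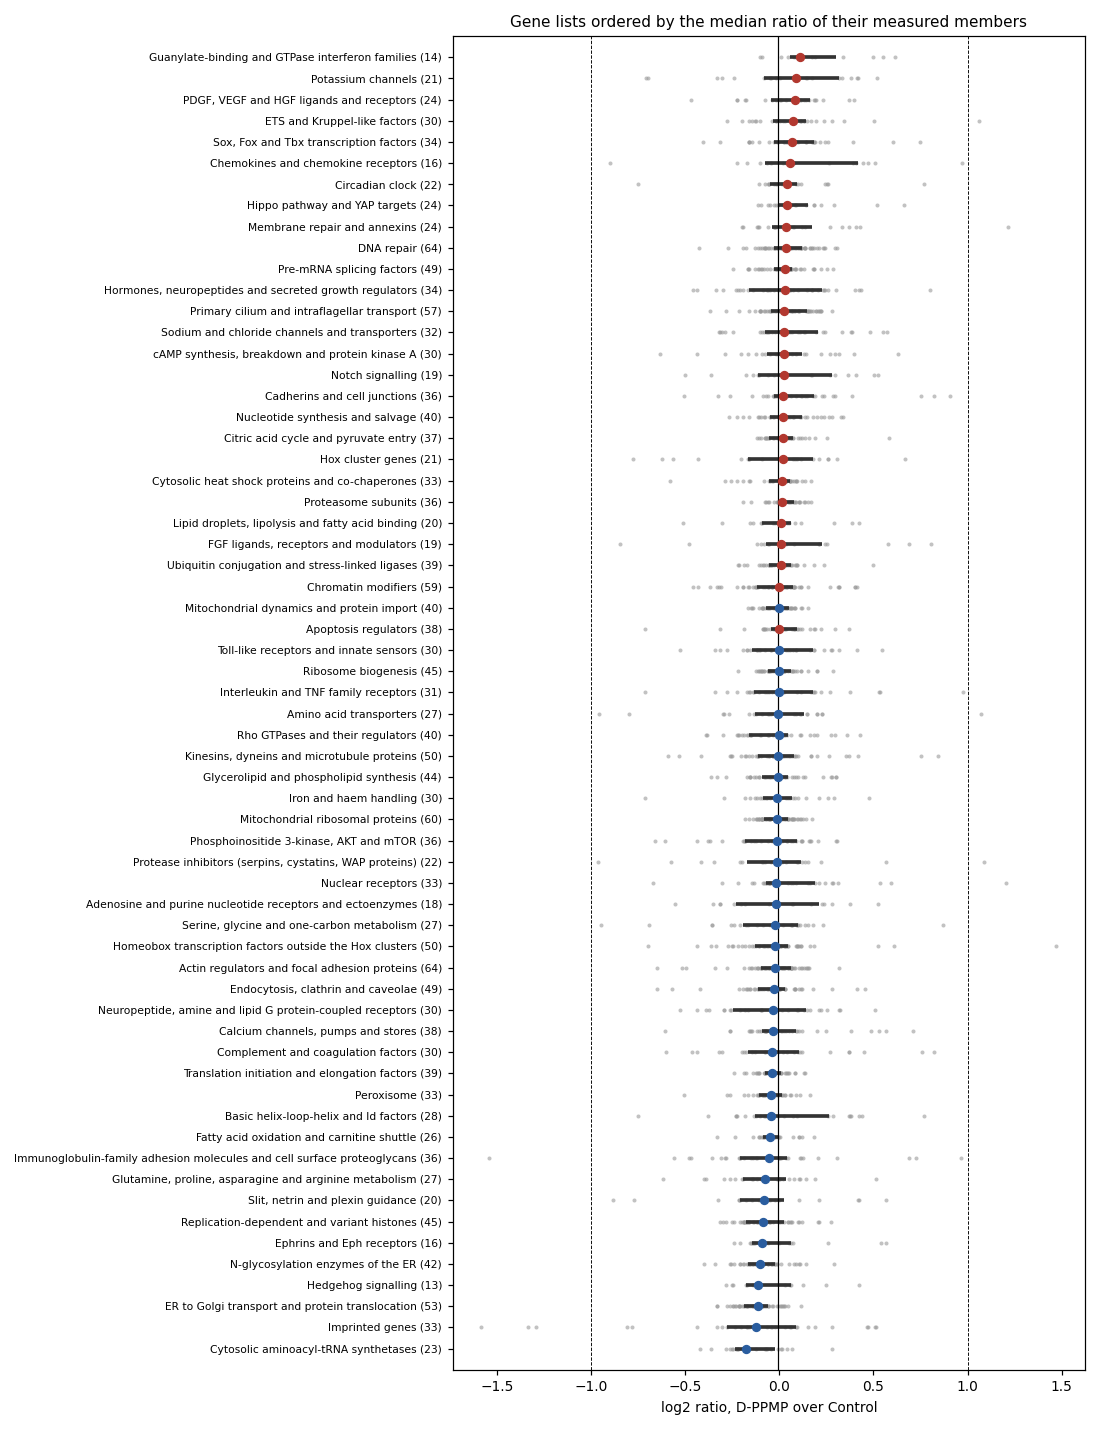
The 62 lists of processes, with the number of measured genes in brackets, ordered by median log2 ratio of D-PPMP over Control. Grey points are genes, bars span the middle 50% and coloured points are medians (red above 0, blue below), which run only from -0.179 to 0.112.

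Feedback regulators and ligands of receptor tyrosine kinases were among the higher genes. Of 19 dual-specificity phosphatases 4 were 1.5-fold higher (against 2.27% of all measured genes), all of which act on MAP kinases. Dusp6, the brightest, went from 1516.3 to 2289.1 (0.59), and the dimmer Dusp4, Dusp2 and Dusp5 were at 0.83, 0.72 and 0.64. The family's median was -0.05, with 10 of the 19 below Control and Dusp7 lowest at -0.35. Spry2, an inhibitor of FGF signalling, went from 95.7 to 154.1 (0.69, with 0.47 on the other probe), and Fgf2 from 4.26 to 7.44 (0.80). Fgf18, a growth factor of the skeleton, went the other way, from 179 to 99.5 (-0.85), and Flrt3, an FGF receptor partner, from 531.3 to 381.3 (-0.48). The FGF list's median changed sign with the scaling. Hbegf, a ligand of the EGF receptor, went from 309.2 to 538.2 (0.80). Genes of PDGF, VEGF and HGF signalling were above in 16 of 24 with a median of 0.085, which went to 0.006 with normexp, 0.023 with quantile normalization and 0.015 with cyclic loess, with Pdgfb at 302.1 and 398 (0.40) and Pdgfrl, a soluble receptor-like protein, at -0.47. Epha2, an ephrin receptor, was at 1164.6 and 1695.6 (0.54) in a list with 10 of 16 genes below. In the list of phosphoinositide 3-kinase signalling, Pik3ip1, an inhibitor of the kinase, was at 267.1 and 169.3 (-0.66, with -0.14 on the other probe) and dim Grb14 at -0.61.

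Other signalling lists differed in their medians. In Notch signalling, with a median of 0.024 over 19 genes, Notch1 (0.52) and its target Hes1 (88.4 and 125.2, 0.50) were above Control, and Notch3 (-0.36) and Hey1 (-0.50) below. Ankrd1, a target of YAP, went from 2744.8 to 3936.5 (0.52), and 17 of 24 genes of the Hippo list were above with a median of 0.04. Pde4b, a cyclic AMP phosphodiesterase, was higher on both probes, at 0.63 and 0.81, and Pde8a lower at -0.63. Hedgehog genes had a median of -0.111 over 13, from Gpr161 at 0.42 to the receptor Ptch1 at -0.28. Among guidance molecules 15 of 20 were below (median -0.079). Dim Plxnc1 (-0.88) and Robo3 (-0.77) were lowest, Rgma, a repulsive guidance molecule and BMP co-receptor, was at 477.7 and 381.1 (-0.33), and Unc5c, a netrin receptor, was higher on both probes at 0.56 and 0.57.

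Transcription factor families gave few large differences. Forkhead genes were above in 24 of 34 with a median of 0.088, which went to 0.008 with normexp, with Foxc2, a mesenchymal regulator, at 231.7 and 352.4 (0.60) and dim Foxl1 at 0.75. In the ETS and Kruppel-like list 20 of 30 were above (median 0.072), led by Etv1, with Sp3 at 294.6 and 417.1 (0.50). Bhlhe40, a repressor in the circadian clock, went from 111.2 to 189.5 (0.77), whereas its paralog Bhlhe41 was at 8.11 and 4.81 (-0.75) with 0.43 on another probe. Myc went from 667 to 904.9 (0.44) and Id2 from 501.1 to 671.8 (0.42). Among nuclear receptors, Ahr, the aryl hydrocarbon receptor, was at 209.4 and 303.5 (0.54), and Thra, a thyroid hormone receptor, at 1047.3 and 847.6 (-0.30). Among dim Hox genes the lowest were Hoxc13 (-0.78), Hoxb9 (-0.62) and Hoxb8 (-0.57), with Hoxa6 at 0.67, and the sign of the list's median changed with the scaling. Of 50 other homeobox genes 22 were above and 28 below (median -0.025). After Tlx2 the highest were dim Nkx3-2 (0.61) and Barx2 (0.52), and the lowest were Meox1 (-0.70), Irx3 (-0.44), Shox2 (-0.36) and the bright Irx1 (-0.34, at 2473.9 and 1961.4).

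Collagen chains were below in 25 of 31 (median -0.133), with Col5a1, a chain that starts fibril formation, at 11552.4 and 7337.3 (-0.66) and Col5a3 at -0.59. Cdh13, a cadherin held by a lipid anchor, was higher on both probes at 0.82 and 0.75, and dim Jam2, Gja4, Cntn1, Cadm4 and L1cam, all of cell contacts, lay between 0.69 and 0.97. Gpc1, a heparan sulphate proteoglycan, went from 10768.2 to 7723.0 (-0.48), and Cd24a, an anchored surface glycoprotein, was lower on both probes at -0.56 and -0.45. Of 64 actin and focal adhesion genes 37 were below, the lowest being Limch1 (303.1 and 193.5, -0.65, with -0.22 on another probe), Tln2, a talin (-0.52, other probe -0.01), and Flnc, filamin C, at 3504.1 and 2770.6 (-0.34). Mapt, the microtubule protein tau, was at 22.1 and 37.3 (0.75). Vldlr, a lipoprotein and reelin receptor, went from 907.6 to 577.9 (-0.65, other probe -0.30).

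In energy and lipid metabolism, Pdk4, which inhibits pyruvate dehydrogenase, went from 1264.7 to 1896.6 (0.58), while the next highest of the 37 genes in the citric acid cycle list, Me2, was at 0.25. Fatty acid oxidation genes were below in 19 of 26 (median -0.047) and peroxisome genes in 23 of 33 (median -0.042), with Phyh, of phytanic acid breakdown, at 242.9 and 171.2 (-0.51). Complex I genes were below in 30 of 46 (median -0.049), and mitochondrial ribosomal proteins in 44 of 78 with a median whose sign changed with the scaling. With cyclic loess the medians of fatty acid oxidation, peroxisome and complex I genes were -0.025, -0.072 and -0.017. Phospholipid synthesis had a median of -0.008, with Dgat2 at -0.36. In iron handling, Tfr2, a transferrin receptor, was lower on its probes, at -0.71 and -0.44. Ion channels stood out only as single genes, Cacna1g, a low-voltage calcium channel, at 171.8 and 112.8 (-0.61) and Kcnmb4, a potassium channel subunit, at 148.1 and 91.5 (-0.69, other probe -0.18).

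Immune genes differed in both directions. Of 14 genes of the interferon-induced GTPase and p200 families 12 were above (median 0.112, the highest of the 62 process lists), with Ifi204 at 31.1 and 43.9 (0.50) and Ifi205 at 240.5 and 303.5 (0.34). The chemokines Ccl2, at 795.3 and 1130.6 (0.51), and Ccl7, at 299.3 and 414.2 (0.47), were above Control, as was dim Cxcl10 (0.97), and the dim scavenging receptor Ackr4 was below (-0.90). Tnfrsf9, the costimulatory receptor 4-1BB, was higher on both probes at 0.97 and 0.95, and Tnfrsf25 was at 64.1 and 39.1 (-0.71). Tlr7, a sensor of RNA, went from 241.8 to 167.6 (-0.53). Wfdc13, of a protease inhibitor family, went from 417.2 to 214.1 (-0.96).

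The middle 50% of ratios spanned 0.134 in the brightest 10% of genes and 0.533 in the dimmest. Among the 1420 in the brightest 10%, with scaled signals of at least 2667.7, ratios ran from -0.92 to 0.86. The highest were Sgk1, Aqp1, the water channel, at 2954.3 and 5244.2 (0.83), Zfp36l2, which destabilises mRNAs, at 4433.7 and 7512.0 (0.76), Phlda1 at 0.57, and Hmga1, a chromatin protein of growing cells, at 5892.5 and 8714.1 (0.56, other probes from -0.08 to 0.70). The lowest was Timp3, an inhibitor of metalloproteinases bound to the matrix, at 7296.8 and 3856.6 (-0.92, other probe -0.63), followed by Pappa2 and Col5a1. Gadd45g was at -0.57, Lox, which crosslinks collagen, at 6094.4 and 4131.4 (-0.56), Atf5, a stress-induced factor, at 14651.3 and 10060.2 (-0.54), and Fbln2, a matrix protein of elastic fibres, at -0.52. Among genes often used as references, Gapdh and Actb were at -0.12, Tbp at -0.11 and Hprt at 0.01.

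A second probe allows a check of a gene within the same arrays. Of 5331 genes with at least 2 probes well above background on both arrays, all probes were 1.5-fold higher in 6 and 1.5-fold lower in 7. The 6 were Egr3, Tnfrsf9, Cdh13, Cobll1, Pde4b and Ern2, and the 7 were Tnn, Timp3, Plb1, Fbn2, Mest, Pappa2 and Aldh1l2. Fbn2, the microfibril protein fibrillin-2, went from 601.1 to 333.4 (-0.85, and lower still on its other probe), and Cobll1 from 107.2 to 184.0 (0.78, others from 0.68 to 0.86). Of the 72 genes that were 2-fold apart only 7 had a second measured probe, and in 5 of these the probes were not all 1.5-fold apart in the same direction.

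Some gene classes were mostly dim. The 742 long noncoding RNAs had a median ratio of 0.061 at a median scaled signal of 12.7, against -0.008 at 264.0 for 13285 protein-coding genes. Olfactory receptors, which belong to the nose, were measured in 129 cases at low signals, with 18 at 1.5-fold higher and 3 lower, beside 184 and 57 of the 1420 genes in the dimmest 10%, and their median of 0.031 changed sign with the scaling. The part of their low level in these counts was not tested.

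A further 1071 genes were well above background only with D-PPMP and 193 only in Control. Their fold is a lower bound, set by the dimmest signal still well above background on the dim array. Where the dim probe's own signal was higher than that limit, the fold is the plain ratio. This fold was at least 2-fold in 69 and 20 of the genes. Olfr981, an olfactory receptor gene with 1 probe, had a scaled signal of 556.0 with D-PPMP and between 0.547 and 1.24 on the other 3 arrays, at least 210.0-fold higher than Control. Hcrtr2, an orexin receptor, was at 47.4 with D-PPMP and at most 0.582 elsewhere (at least 17.9-fold higher), and Frmpd1os at 46.8 and at most 0.581 (at least 17.7-fold). In these 3 genes the D-PPMP array stood apart from all others. Nefm, a neurofilament subunit, was at least 4.68-fold higher. In Control only, Slco1a4, an organic anion transporter, was at 16.8 against 1.41 with D-PPMP (at least 6.8-fold lower), 0.555 with Miglustat and 1.3 with D-PDMP. Pf4, a platelet chemokine, was at least 3.95-fold lower. Kcnj2, an inward rectifier potassium channel, was 3.79-fold lower as a plain ratio, since its D-PPMP signal of 2.59 was above the limit.

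The labelled cell type was compared with its markers. Of 18 osteoblast genes, 14 were well above background on both arrays and 5 of these above Control. Sparc (55545.7 and 40803.5, -0.45), Col1a1 (28171.1 and 25697.6, -0.13), Postn (-0.25), Runx2 (-0.11) and Spp1 (4665.1 and 6080.2, 0.38) were present on both arrays. Alpl, Ibsp and Dmp1 were well above background on neither. The summed scaled signal of all 18 osteoblast genes was 152096.2 in Control and 128616.2 with D-PPMP, a log2 ratio of -0.24. Within that sum Sparc alone went from 55545.7 to 40803.5, and its other probe gave a ratio of -0.235. In RNA from a whole culture, fewer cells of a type and less RNA per cell cannot be told apart. Of epithelial markers, 9 of 18 were measured, and their summed signal went from 3859.0 to 2394.9 (-0.69), of which the bright Cdsn made up most, while Epcam, Krt18 and Krt19 were well above background on neither array. Macrophage markers summed to 4108.4 and 3739.2 (-0.14) with Ptprc, Adgre1 and Tyrobp below that limit on both arrays, chondrocyte markers to 9003.5 and 7789.1 (-0.21), tendon markers to 7345.9 and 7374.5 (0.01), adipocyte markers to 84.2 and 95.2 (0.18), endothelial markers to 214.5 and 202.9 (-0.08), muscle markers to 9596.6 and 9292.8 (-0.05) and neural markers to 3319.8 and 3149.6 (-0.08). The part of other cell types in the results was not tested.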

How the data were processed

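RNA of 4 MC3T3-E1 samples was hybridised to Agilent one-colour arrays, per the labels' protocols. The deposited files from the scanner give intensities of spots, which Agilent Feature Extraction 12.1.1.1 had corrected for background on each array separately, per the file headers. The authors' deposited table holds log2 values, and its column medians were -4.1, -4.0, -4.0 and -3.89 for Control, Miglustat, D-PDMP and D-PPMP. Its values lay within 0.05 of log2 processed signal minus the array's 75th percentile for 98.0% of probes in Control and 95.2% with D-PPMP, so scale, centring and direction are those used here. The software behind it is not given in the sources used here.

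Control spots and outlier spots (70 in Control, 85 with D-PPMP) were left out, replicate spots were averaged as log2 processed signals, and from each of the 56605 probes the 75th percentile of its array was subtracted. Probes were matched by accession to a RefSeq table of GRCm38.p6, 32989 (58.3%) to 22907 genes. A gene takes its brightest probe over the 4 arrays. A difference is called at 2 or 1.5-fold where both arrays have the gene well above background. No test was made, and the precision is limited by the number of arrays. The counting code was run on simulated data with noise set well below the software's error and no spread between cultures. That run checks the code and not the calls. Named are genes 2-fold apart, the 4 highest and 4 lowest of each of 71 lists, the 2 highest and 2 lowest of each of 57 symbol families, the 10 and 10 most distant of the brightest 10%, genes whose probes are all 1.5-fold apart, the 10 highest bounds a direction, and fixed osteoblast and reference genes. Names outside that rule were chosen after their values were seen: all insulin-like growth factor genes other than Igf2, Igfbp2, Igfbp5, Pappa2, Grb10 and Irs1, the promoter and neighbour examples, Inhba, Plagl1, Dusp5, Dusp6, markers named as not above background, and imprinted genes named as close to Control. A few genes within the rule are not reported here. The comparison, members and lists were chosen with earlier results of these data known.

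Python 3.11.15, pandas 2.3.3, numpy 2.4.6, R 4.3.3 and limma 3.58.1 were used. The alternatives were quantile normalization, cyclic loess, normexp (offset 50), another percentile, the authors' table, 3 other filters on dim probes and the mean of a gene's probes.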

Additional observations from a re-analysis of the deposited data

Results flagged for a closer look

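Probes without a gene name lie outside the comparison of genes. Of 11070 such probes well above background on both arrays, 162 had a D-PPMP signal 2-fold or more above Control and 14 were 2-fold or more below (1.46% and 0.126%, against 0.303% and 0.204% of named genes). Their median log2 ratio was 0.107 at a median scaled signal of 19.5, where named genes also lay slightly above Control. The split was seen in probes for genomic regions (41 and 2), for Ensembl transcripts (40 and 5) and for other accessions (81 and 7). The highest ratio was 3.73 and the lowest -1.88. The part of the level of these probes in the split was not tested.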

How the results depend on the processing

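With no replicate, no alternative measures error between cultures. The counts of genes 2-fold higher and lower (43 and 29) and 1.5-fold higher and lower (322 and 167) changed by less than 1.5 times with the authors' table, a percentile over probes above background on every array, genes well above background on all 4 arrays and the mean of a gene's probes. In the same order they were 6, 8, 21 and 38 with normexp on the median spot signal, chosen after seeing that the files hold no mean signal, so that the planned form was not run. They were 22, 56, 145 and 361 with quantile normalization, 21, 48, 138 and 348 with cyclic loess, 3, 2, 12 and 22 above the median level, where fewer genes are counted, and 1620, 364, 2917 and 897 with no filter, where dim probes enter. Among the 72 genes 2-fold apart none changed sign under any scaling, and 13 stayed 2-fold apart under all of them, namely Egr2, Egr3, Errfi1, Nr4a1, Tlx2, Cdsn, Cox6a2, Dcn, Igfbp2, Igfbp5, Igsf10, Lum and Tnn. Without normexp 47 did, 20 higher and 27 lower. A change of scaling does not check whether probes of a gene agree. Of the 13, the second probes of Tlx2 and Igsf10 gave only 0.16 and -0.13 with the main scaling. No paired analysis was possible because each group has 1 array. Signal over background limits the dim genes, whose ratios depend most on the background correction.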
